A study of Mus musculus with 24 samples.

Results

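Adipocytes grown from the stromal vascular cells of inguinal white fat were compared with those of epididymal white fat after knockdown of Cebpb. Cell type and depot are given here as the sources name them. The comparison used 12 of the 24 libraries of the series, chosen by their labels alone: 6 labelled iWAT (inguinal) against 6 labelled eWAT (epididymal), all given the siRNA against C/EBPbeta (siC/EBPb). Each side held 3 control libraries (Cont, strain Senp2flox/flox) and 3 adipocyte-knockout libraries (aKO, strain Senp2flox/flox ; Adipoq Cre). The floxed Senp2 alleles were thus carried by all 12. Cre is driven by the Adipoq promoter, which is active in differentiated fat cells, so undifferentiated cells of an aKO culture keep an intact Senp2. All cultures were differentiated alike, with dexamethasone, isobutylmethylxanthine and insulin and then insulin alone. When the siRNA was given is not stated in the sources used here. The other 12 libraries received siNS, a treatment the labels do not explain further, and served only for the test of the depot difference between siRNAs. The labels do not say whether replicates were separate animals or cultures. The p-values therefore speak only of the spread among the libraries at hand, which may be technical.

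C/EBPbeta is a leucine-zipper transcription factor that is induced early when preadipocytes are given an adipogenic hormone mix, and it helps to switch on Cebpa and Pparg, which then drive the fat cell programme. It also acts with NF-kB in inflammatory gene expression. Fat depots differ in embryonic origin: the stromal cells of visceral depots are known for Wt1, Tcf21 and Thbd, and those of subcutaneous depots for Tbx15, Shox2, En1 and posterior Hox genes. These identities are largely kept in culture.

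Gene counts per library ranged from 13474432 to 15213555 in the eWAT-labelled libraries and from 10333597 to 14025668 in the iWAT-labelled ones, so the iWAT side was on average shallower. The first principal component (45.4% of the variance) separated the genotypes and the second (15.7%) the depot labels. Replicate 1 of aKO stood apart on the first component in both depots, at 31.8 and 32.8 against 16.0 to 17.6 in the other aKO libraries. Its removal from both sides left the count of depot differences at 4068, against 3821 with it.

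Cebpb itself was lower in the siC/EBPb libraries than in the siNS libraries of both depots. On a scale common to all 24 libraries it ran from 12.7 to 57.3 CPM (gene counts scaled to library size) in the siC/EBPb libraries and from 103 to 181 CPM in the siNS libraries, with no overlap. Within the knockdown, Cebpb stood at 57.9, 43.2 and 51.9 CPM in eWAT Cont and at 37.5, 38.5 and 34.5 CPM in iWAT Cont. In aKO it stood at 20.6, 32.6 and 29.9 CPM in eWAT and at 13, 19.7 and 23.9 CPM in iWAT. The iWAT-labelled libraries were thus lower within each genotype apart from 1 overlapping pair of aKO libraries. The depot difference was -0.51 ± 0.15 log2 (SE, 6 against 6; edgeR quasi-likelihood adjusted p = 0.0308). The call was lost when any of 8 of the 12 libraries was left out, and with a GC correction described below (-0.28, edgeR adjusted p = 0.221). Under siNS, on the common scale, Cebpb was also lower in the iWAT-labelled libraries. It stood at 145, 110 and 118 CPM in iWAT Cont against 156, 166 and 181 CPM in eWAT Cont. In aKO it stood at 114, 103 and 127 CPM in iWAT against 141, 158 and 155 CPM in eWAT. The 103 CPM, also the low end of the siNS range above, came from iWAT aKO siNS replicate 2. That library was shallow, with 603585 gene counts in all and 52 of Cebpb. The next lowest siNS value was 110 CPM. The lower level left under siC/EBPb therefore does not by itself show a deeper knockdown. Equal depth on both sides was not shown either, and the part of the knockdown in the other depot differences was not tested. Senp2 counted over the whole gene did not separate the depots (0.03 ± 0.04 log2, edgeR adjusted p = 0.693) and did not fall in aKO (0.08 log2, edgeR adjusted p = 0.185). A count over the whole gene need not show the loss of floxed exons in a part of the cells, so it does not check the genotype labels.

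None of the tested genes listed for visceral fat was called between the depot labels, and those listed for subcutaneous fat differed in both directions. Wt1, a transcription factor of visceral fat stroma and mesothelium, was at 17.4, 14.0 and 15.6 CPM in eWAT Cont and at 14.9, 15.4 and 14.7 CPM in iWAT Cont. In aKO it was at 1.21, 1.85 and 1.33 CPM in eWAT and at 1.41, 1.44 and 2.14 CPM in iWAT. The Cont libraries of both labels overlapped, and so did the aKO libraries, which were low under both labels. Its depot difference was -0.02 ± 0.10 log2 (edgeR adjusted p = 0.899) and its genotype difference -3.30 log2 (edgeR adjusted p = 2.27e-15). Tcf21, a basic helix-loop-helix factor of visceral fat progenitors, ran from 4.96 to 5.21 CPM in eWAT Cont and from 2.71 to 4.86 CPM in iWAT Cont, and stayed under 1 CPM in all 6 aKO libraries. Its depot difference was -0.16 ± 0.21 log2 (edgeR adjusted p = 0.600). Thbd, the thrombomodulin gene, had a depot difference of -0.04 ± 0.08 log2 (edgeR adjusted p = 0.768) and a genotype difference of -1.34 log2 (edgeR adjusted p = 2.81e-10). Of 15 genes listed for visceral depots 11 were tested and 0 were called in either direction, without and with the GC correction, against 27.0% of all 14130 tested genes, although 7 of the 11 were lower in aKO, against 14.0% of all genes. With no filter on low counts and with limma voom, 1 of the list was called.

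**Figure D1:**
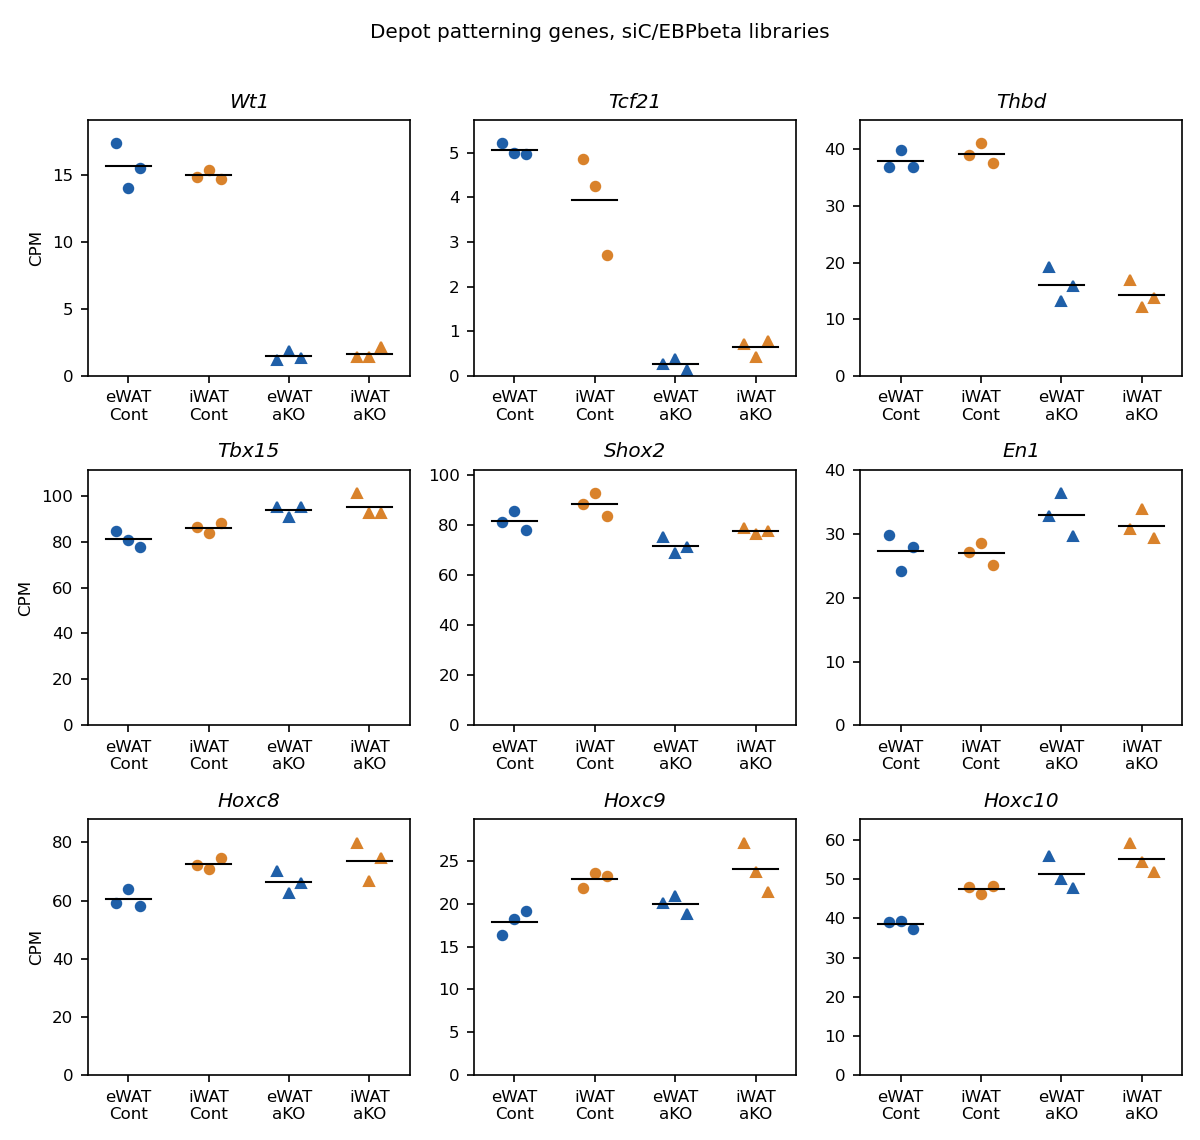
CPM of 9 depot patterning genes in the 12 siC/EBPb libraries, with 1 point per library and a bar at the group mean. Wt1, Tcf21 and Thbd differ between Cont (circles) and aKO (triangles) and were not called between the depot labels, and Hoxc9 is the 1 gene here whose iWAT-labelled libraries all lie above the eWAT-labelled ones.

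Of 16 genes listed for subcutaneous depots 4 were higher and 3 lower in the iWAT-labelled libraries (43.8%, against 27.0% of all genes), with differences from -0.29 to 0.32 log2. With the GC correction 4 were higher and 1 lower. Libraries did not overlap for 1 of the 16, against 9.36% of all tested genes. Tbx15, a T-box factor of subcutaneous fat, ran from 77.8 to 95.2 CPM in the eWAT-labelled libraries (median 87.7) and from 83.7 to 101 CPM in the iWAT-labelled ones (median 90.1), a difference of 0.05 ± 0.04 log2 (edgeR adjusted p = 0.351; 95% confidence interval -0.03 to 0.13). The homeobox gene En1 differed by -0.04 ± 0.06 log2 (edgeR adjusted p = 0.648) and Irx3 by -0.12 ± 0.07 log2 (edgeR adjusted p = 0.234). Shox2 was higher in the iWAT-labelled libraries by only 0.11 ± 0.04 log2 (edgeR adjusted p = 0.0401), and 9 of the 12 removals of a single library ended that call. For these reasons the sides are named below by their labels, as iWAT-labelled and eWAT-labelled libraries. Whether the depot of origin or something else that went with the labels set the differences cannot be told apart here.

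Within the Hoxc cluster 3 neighbouring genes were higher in the iWAT-labelled libraries. The posterior homeobox gene Hoxc9 (chromosome 15, 102976439 to 102985099, plus strand, GRCm38) had 16.4, 18.2 and 19.1 CPM in eWAT Cont, 20.1, 21 and 18.8 CPM in eWAT aKO, 21.9, 23.6 and 23.3 CPM in iWAT Cont and 27.2, 23.8 and 21.4 CPM in iWAT aKO. All 6 iWAT-labelled libraries lay above all 6 eWAT-labelled ones, as in 9.36% of all tested genes in either direction. The difference was 0.32 ± 0.06 log2 (edgeR adjusted p = 7.48e-04), and with the GC correction 0.41 log2 (edgeR adjusted p = 4.99e-05). Its neighbours Hoxc8 (0.21 ± 0.05 log2, edgeR adjusted p = 0.00220) and Hoxc10 (0.20 ± 0.05 log2, edgeR adjusted p = 0.00602) were also higher, with overlapping libraries. The other 6 tested genes of the cluster, Hoxc4, Hoxc5, Hoxc6, Hoxc11, Hoxc12 and Hoxc13, were not called and had negative estimates, from -0.20 (Hoxc5) to -0.03 log2 (Hoxc11). Hoxa9 (-0.29 ± 0.09 log2, edgeR adjusted p = 0.0159) and Hoxb2 (-0.28 ± 0.08 log2, edgeR adjusted p = 0.0127) were lower, the latter not called with the GC correction (edgeR adjusted p = 0.114). In all, 3 of 29 tested Hox genes were higher and 2 lower (17.2%, below the 27.0% of all genes), and 3 and 1 with the GC correction. Among the lower subcutaneous genes, Irx5 (-0.23 ± 0.06 log2, edgeR adjusted p = 0.00974) was not called with the GC correction (-0.05 log2, edgeR adjusted p = 0.677).

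Across all genes the depot difference was broad and shallow. It was called for 1939 genes higher (13.7%) and 1882 lower (13.3%) in the iWAT-labelled libraries, with a median size of 0.224 log2 among the called genes (quartiles 0.170 and 0.309). Only 2 genes (0.0142%) passed a test against a 1.5-fold change, Tpt1-ps5 and Mir7688, a pseudogene and a microRNA gene whose reads can be shared with other transcripts. The genotype difference in the same 12 libraries was called for a like number, 3778 genes (26.7%), but 469 genes (3.32%) passed the test against 1.5-fold there.

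The depot difference ran along the GC content of the transcripts. Over 12756 coding genes Spearman's rank correlation between the log2 depot difference and transcript GC was -0.594, a description across genes that share the same 12 libraries. The coding genes were ordered by GC into 10 groups of like size. In the group with the least GC (median 40.7%) 615 of 1276 were called higher and 6 lower. In the group with the most (median 59.5%) 10 of 1276 were called higher and 492 lower. The same correlation was 0.140 for the genotype difference and 0.0313 for the depot difference against transcript length. The GC tilt of a library, the median log2 deviation of the lowest GC group from the mean of all libraries minus that of the highest group, ran from -0.494 to 0.0116 in the eWAT-labelled libraries and from 0.0801 to 0.225 in the iWAT-labelled ones, without overlap. A refit with a GC correction, in which each library received an offset fitted on transcript GC, called 2375 genes (16.8%), 1314 higher (9.30%) and 1061 lower (7.51%). Of the 3821 calls 1650 (43.2%) stayed called in the same direction. Whether the tilt arose in the cells or in library preparation was not tested. Counts for most gene lists below are given without and with the correction. The share of all genes to set beside them is 27.0% without it and 16.8% with it.

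**Figure D2:**
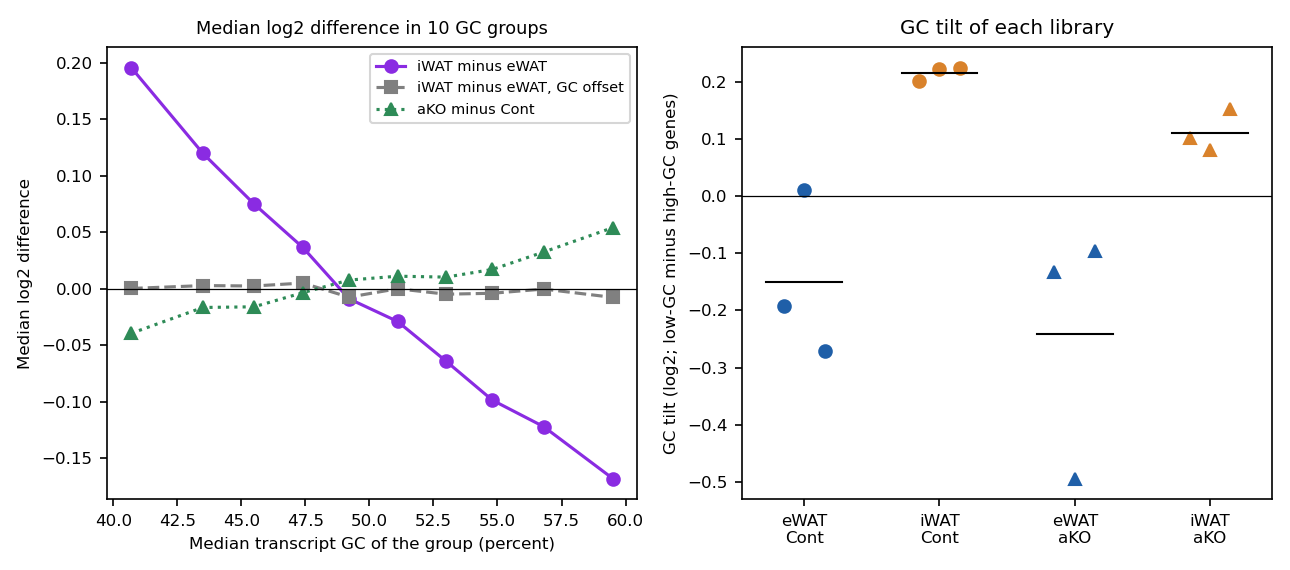
Left, the median log2 difference in each of 10 groups of coding genes by transcript GC, for iWAT-labelled minus eWAT-labelled libraries without and with the GC offset and for aKO minus Cont. Right, the GC tilt of each of the 12 libraries with group means as bars; the 6 iWAT-labelled libraries lie at 0.0801 to 0.225, above all eWAT-labelled ones.

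Nfkbia, Ier3 and Map3k14 were among the 15 largest falls in the iWAT-labelled libraries, by a rule of size given below. They are described together for their known ties to NF-kB, chosen after their values were seen, and no list of NF-kB genes was tested. Nfkbia, which encodes the inhibitor IkBalpha that holds NF-kB in the cytoplasm and is itself an NF-kB target, ran from 9.06 to 15.6 CPM in the eWAT-labelled libraries (median 13.4) and from 5.26 to 7.30 CPM in the iWAT-labelled ones (median 6.53). The sides did not overlap. The difference was -1.0 ± 0.12 log2 (edgeR adjusted p = 1.25e-05), -1.10 in Cont and -0.89 in aKO, and -0.92 with the GC correction. Ier3, an immediate early gene that restrains cell death, ran from 29.2 to 44.5 CPM (median 34.5) against 15.3 to 22.1 CPM (median 18.6), a difference of -0.95 ± 0.12 log2 (edgeR adjusted p = 1.87e-04; with the GC correction -0.87). Map3k14, the NF-kB-inducing kinase of the non-canonical pathway, ran from 19.95 to 24.6 CPM against 12.0 to 15.7 CPM, a difference of -0.70 ± 0.07 log2 (edgeR adjusted p = 7.79e-07; with the GC correction -0.57). Nfkb1, the p105 subunit gene, was lower by less, at -0.14 ± 0.04 log2 (edgeR adjusted p = 0.0103; with the GC correction -0.12). The cytokine gene Lif was lower too (-0.35 ± 0.05 log2, edgeR adjusted p = 2.56e-05; with the GC correction -0.28). Of 19 tested acute phase and inflammatory genes 4 were lower and 0 higher, and also 4 and 0 with the GC correction, which ended the call of Tnfaip2 and added Vcam1. Without it that is 21.1%, below the 27.0% of all genes, with a median of -0.040 log2. Tnfaip3, Icam1, Il6 and Tnf, targets of NF-kB in that list, were not called. Of 19 tested chemokines 0 were called, and 1 was lower with the correction.

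The promoter windows of Bc1, Tle2 and Arhgap6 are shown because they hold a C/EBP-type motif, the kind of sequence that the knocked-down factor is known to bind. The windows are those of RefSeq (GRCm38.p6), 250 bases before to 50 bases after the start, and capitals mark the motif. Bc1 and Tle2 have 1 window each. Arhgap6 has 3, of which only the 1 shown holds the motif. The motif was TTGCNNAA, searched on both strands. The Bc1 window lies at chr7:144914220-144914519, plus strand, Tle2 at chr10:81575037-81575336, plus strand and Arhgap6 at chrX:168794849-168795148, plus strand.
Bc1 promoter window: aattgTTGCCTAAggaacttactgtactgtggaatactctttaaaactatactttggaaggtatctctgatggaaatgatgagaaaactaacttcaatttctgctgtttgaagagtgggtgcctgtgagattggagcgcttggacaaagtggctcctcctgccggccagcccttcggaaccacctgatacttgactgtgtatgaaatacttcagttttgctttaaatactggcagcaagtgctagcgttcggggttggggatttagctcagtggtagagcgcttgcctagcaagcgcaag
Tle2 promoter window: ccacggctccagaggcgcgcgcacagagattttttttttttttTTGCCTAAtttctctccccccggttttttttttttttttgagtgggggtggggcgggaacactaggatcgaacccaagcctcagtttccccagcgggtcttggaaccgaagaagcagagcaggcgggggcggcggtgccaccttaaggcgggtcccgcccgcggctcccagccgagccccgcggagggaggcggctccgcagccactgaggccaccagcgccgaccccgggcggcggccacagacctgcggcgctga
Arhgap6 promoter window: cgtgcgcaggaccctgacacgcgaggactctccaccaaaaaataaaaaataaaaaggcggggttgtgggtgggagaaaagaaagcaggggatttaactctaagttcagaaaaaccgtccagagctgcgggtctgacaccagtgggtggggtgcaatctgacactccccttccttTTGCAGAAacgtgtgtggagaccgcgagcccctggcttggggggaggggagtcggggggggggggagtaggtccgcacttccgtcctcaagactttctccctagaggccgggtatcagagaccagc
Of the 30 genes named for size below, 22 had a window, and 3 of these held the motif in at least 1 window. Among all genes with a window 12.2% held it by the same rule. A match is a run of letters and not a site shown to be bound. Bc1 was higher and Tle2 and Arhgap6 were lower in the iWAT-labelled libraries, so the letters went with no single direction. The motif was found in a window of 7.90% of the genes called higher, 10.3% of those called lower and 10.0% of all tested genes that had one.

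**Figure D3:**
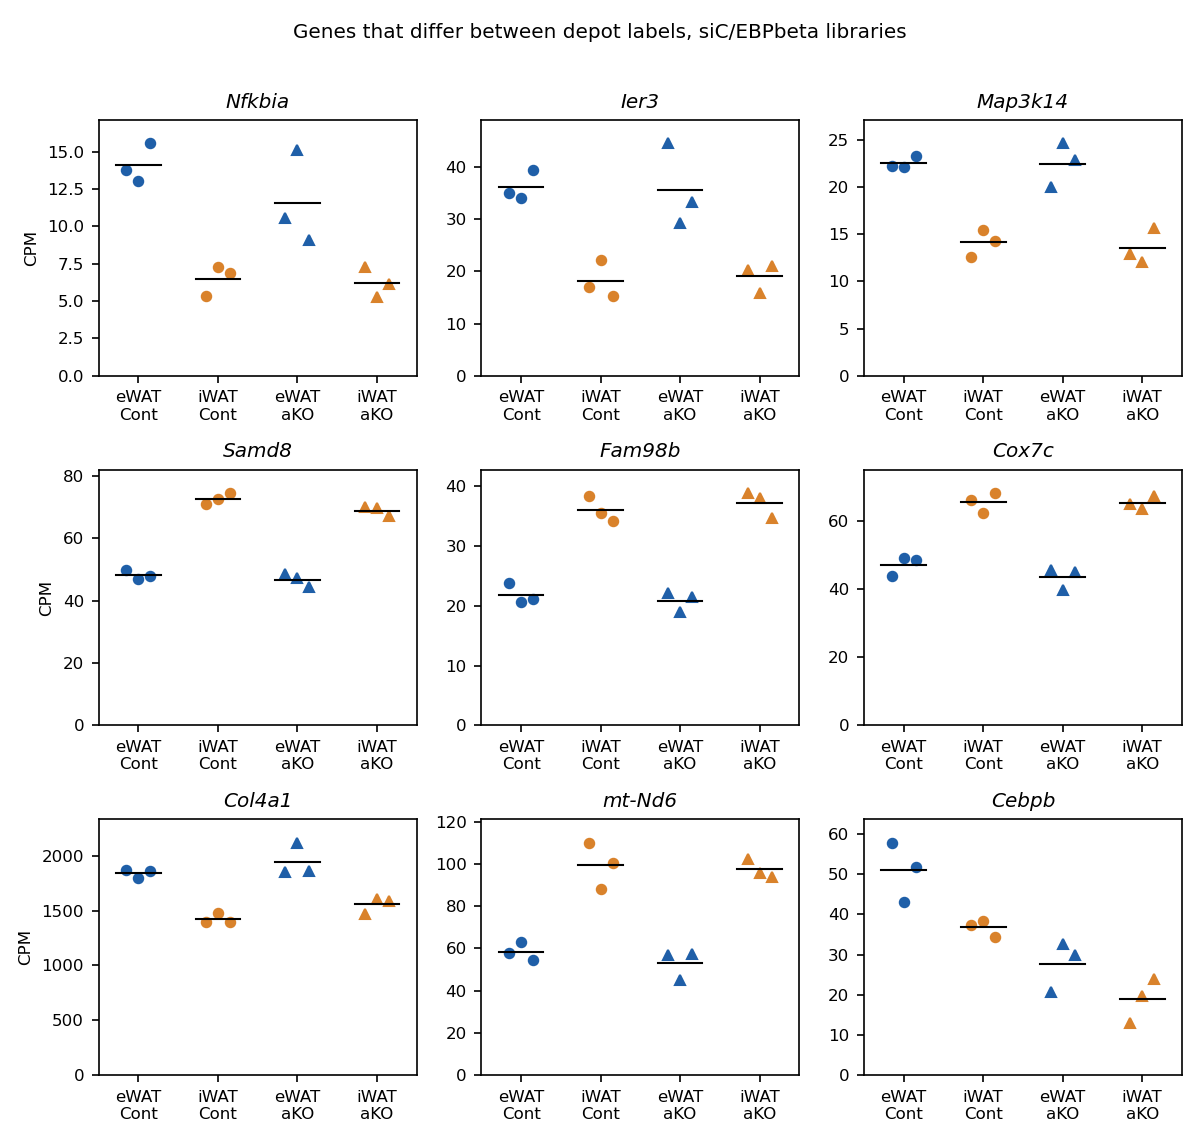
CPM of 9 genes in the 12 siC/EBPb libraries, with 1 point per library and a bar at the group mean. Apart from Cebpb, each of these genes has all 6 iWAT-labelled libraries on 1 side of all 6 eWAT-labelled libraries, in Cont (circles) as in aKO (triangles). For Nfkbia, Ier3, Map3k14, Samd8, Fam98b and mt-Nd6 the rule of size required this. Of all tested genes 9.36% had sides that did not overlap.

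By a rule of size, the 15 largest rises and 15 largest falls were taken among called genes. Their sides did not overlap and their mean log2 CPM was 1 or more. Predicted genes, pseudogenes, clone names and identifiers without a symbol of their own were left out. Of all tested genes 23 were called higher and 10 lower by 2-fold or more. Of these, 1 and 2 met the limits on level and name. The falls were led by Col11a2, a minor fibrillar collagen chain, which ran from 2.90 to 4.49 CPM in the eWAT-labelled and from 1.08 to 2.28 CPM in the iWAT-labelled libraries (-1.14 ± 0.17 log2, edgeR adjusted p = 3.69e-05). Rnf145, a ubiquitin ligase of the endoplasmic reticulum, lay between 69.5 and 72.8 CPM in all eWAT-labelled libraries and between 33.0 and 52.1 CPM in the iWAT-labelled ones (-0.85 ± 0.10 log2, edgeR adjusted p = 7.91e-05; with the GC correction also -0.85). Hnrnpl, a splicing regulator, lay between 197 and 221 CPM against 104 and 138 CPM (-0.80 ± 0.06 log2, edgeR adjusted p = 1.10e-06). The small GTPase gene Arl4c and Arhgap6 were lower by 0.67 and 0.74 log2, the co-repressor Tle2 by 0.73 and the BMP modulator Kcp by 0.71. The non-coding RNAs Meg3 and Firre were lower by 0.72 and 0.77 log2. Ptprv, Slc9a5 and Zfp692 complete the falls, at -0.88, -0.85 and -0.72 log2.

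The largest rise by this rule was that of Bc1, a short non-coding RNA transcribed by RNA polymerase III. It ran from 6.43 to 11.5 CPM in the eWAT-labelled and from 19.9 to 31.9 CPM in the iWAT-labelled libraries (1.34 ± 0.14 log2, edgeR adjusted p = 3.70e-05). Samd8, a sphingomyelin synthase-related enzyme, had the tightest sides, 44.5 to 49.8 CPM against 67.0 to 74.5 CPM (0.58 ± 0.04 log2, edgeR adjusted p = 4.04e-09; with the GC correction 0.47). Fam98b, a subunit of the tRNA ligase complex, ran from 18.9 to 23.8 CPM against 34.1 to 38.8 CPM (0.78 ± 0.06 log2, edgeR adjusted p = 7.20e-09). Eif5b, which joins the ribosomal subunits at initiation, was higher by 0.59 ± 0.06 log2 and the nucleosome-binding gene Hmgn5 by 0.65 ± 0.09 log2. Zfp947, Mir99ahg and Gucy1a2, a subunit of soluble guanylate cyclase, rose by 0.67, 0.71 and 0.60 log2. The remaining 7 of the 15 rises were mitochondrial genes. With the GC correction 27 of the 30 genes were still called.

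**Figure D4:**
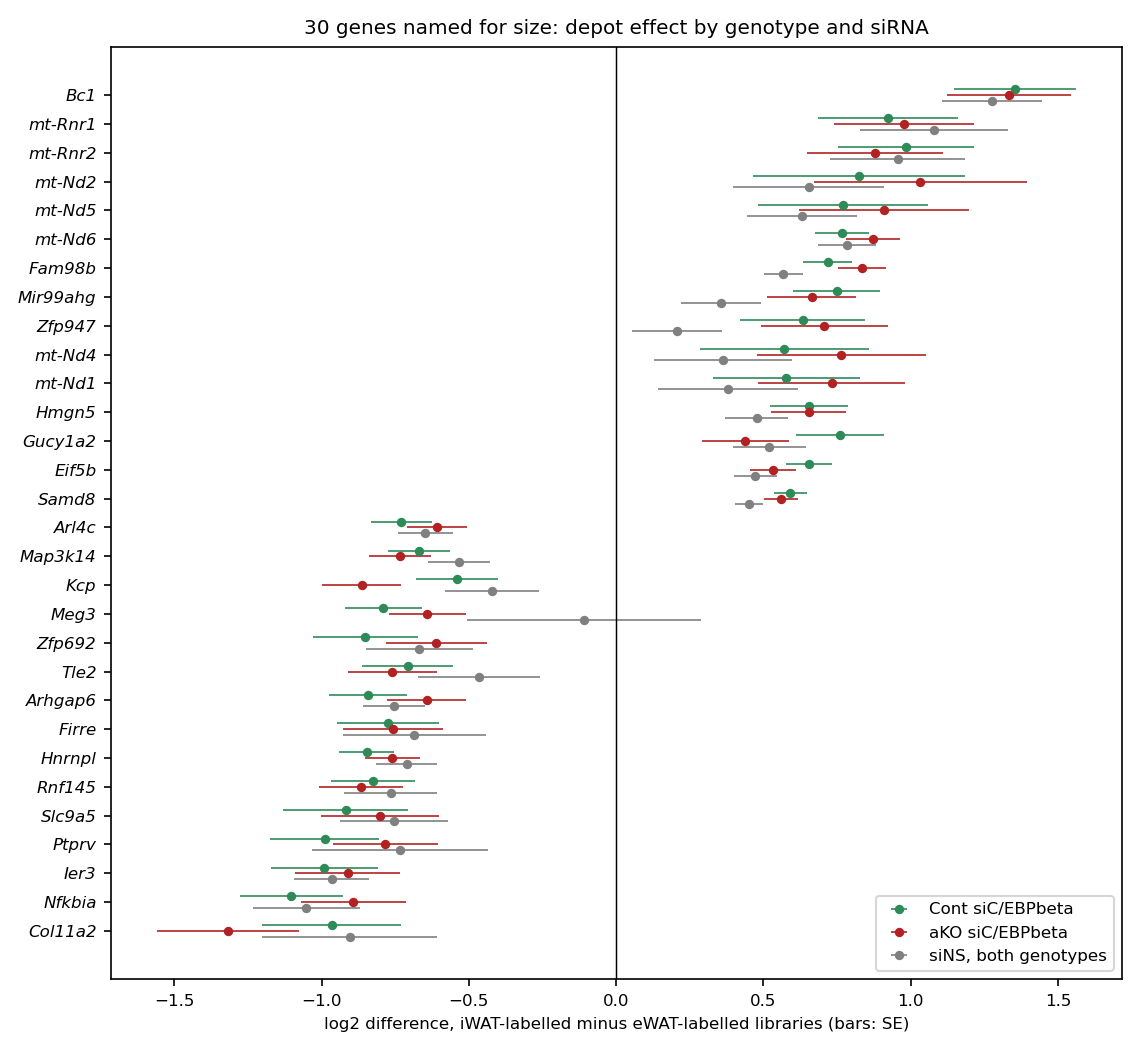
Log2 difference between iWAT-labelled and eWAT-labelled libraries, with SE bars, for the 30 genes named for size, in Cont and aKO under siC/EBPb and in both genotypes under siNS (all 12 siNS libraries). The choice of genes with non-overlapping sides fixes an equal sign in Cont and aKO; the 30 differences have that sign under siNS too.

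Transcripts of the mitochondrial genome were higher in the iWAT-labelled libraries. The summed level of the 13 protein-coding genes was 7618, 8471 and 6935 CPM in eWAT Cont, 7996, 3872 and 8749 CPM in eWAT aKO, 12280, 10310 and 11160 CPM in iWAT Cont and 11380, 11500 and 11190 CPM in iWAT aKO. All iWAT-labelled libraries lay above all others, and eWAT aKO replicate 2, which also had the most negative GC tilt (-0.494), was the lowest. Of the 13 genes 7 were called higher and 0 lower (53.8%, against 27.0% of all genes). The median was 0.62 log2 against -0.0064 over all tested genes. These transcripts are poor in GC (median 37.1%), and with the GC correction the median was 0.35 log2. With it 2 of the 13 were called, a share near the 16.8% of all genes. mt-Nd6, the one coding gene of the light strand, was among them: it ran from 45.2 to 63.0 CPM against 88.0 to 110 CPM (0.82 ± 0.06 log2, edgeR adjusted p = 2.26e-07; with the GC correction 0.47, edgeR adjusted p = 2.29e-06). mt-Nd5, also a complex I subunit, was the other (0.84 ± 0.19 log2, edgeR adjusted p = 0.0109; with the GC correction 0.59, edgeR adjusted p = 0.0255). The ribosomal RNAs mt-Rnr1 and mt-Rnr2 were higher by 0.95 and 0.93 log2, in libraries made from poly(A) RNA. The differences of mt-Nd1, mt-Nd2 and mt-Nd4 (0.66, 0.93 and 0.67 log2) were not called with the GC correction, and the call of mt-Nd4 also ended in 7 of 12 removals of a single library. Mitochondrial genes have near-identical copies in the nuclear genome, so their counts are uncertain to that extent.

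Nuclear genes of the respiratory chain were higher in part, by less. Of 74 tested 25 were higher and 0 lower (33.8%, against 27.0% of all genes, 13.7% higher), with a median of 0.091 log2. The estimate was above 0 for 54 and below 0 for 20. With the GC correction 30 were higher and 2 lower, against 9.30% and 7.51% of all genes, with a median of 0.12 log2. Cox7c, a subunit of cytochrome oxidase, ran from 39.6 to 49 CPM in the eWAT-labelled libraries and from 62.2 to 68.1 CPM in the iWAT-labelled ones (0.53 ± 0.05 log2, edgeR adjusted p = 1.09e-07; with the GC correction 0.43). The complex I subunits Ndufa12 (0.41 ± 0.06 log2, edgeR adjusted p = 1.55e-05) and Ndufb4 (0.34 ± 0.07 log2, edgeR adjusted p = 7.71e-04) and the ATP synthase gamma subunit Atp5c1 (0.34 ± 0.05 log2, edgeR adjusted p = 3.49e-05) were higher without overlap of the sides. With the GC correction they stood at 0.44, 0.35 and 0.33 log2. In a fit over all 24 libraries, which called 16.7% of genes, only 5 of the 74 were called.

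Collagen genes were lower in the iWAT-labelled libraries. All 23 tested had a negative difference, with a median of -0.29 log2. Of them 16 were called lower and 0 higher (69.6%, against 27.0% of all genes, 13.3% lower). Their transcripts are rich in GC (median 56.9%). With the GC correction 12 were lower, against 7.51% of all genes, with a median of -0.21 log2. Col4a1, the main basement membrane chain, stood at 1872, 1794 and 1860 CPM in eWAT Cont, 1849, 2119 and 1862 CPM in eWAT aKO, 1392, 1479 and 1397 CPM in iWAT Cont and 1469, 1607 and 1591 CPM in iWAT aKO. No iWAT-labelled library reached the lowest eWAT-labelled one. Its difference was -0.35 ± 0.04 log2 (edgeR adjusted p = 2.51e-06; with the GC correction -0.22), close to that of its partner Col4a2 (-0.34 ± 0.04 log2, with the GC correction -0.17). Col4a5, whose transcript is not GC-rich (50.7%), differed by -0.40 ± 0.04 log2 (edgeR adjusted p = 1.51e-06) and kept -0.38 with the correction. The fibrillar chains Col5a1 and Col5a2 differed by -0.35 ± 0.05 and -0.28 ± 0.04 log2, and Col27a1 by -0.52 ± 0.06 log2. Col1a1, the most abundant collagen here, differed by -0.15 ± 0.05 log2 (edgeR adjusted p = 0.0209) and by -0.01 with the correction.

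Other matrix and stromal genes were lower in part. Among 25 fibroblast and progenitor markers 7 were lower and 1 higher (32%, against 27.0% of all genes), and 5 and 1 with the GC correction. The lower ones include Dlk1, a preadipocyte factor that restrains differentiation (-0.41 ± 0.07 log2, edgeR adjusted p = 2.78e-04; with the GC correction -0.32), the matrix glycoprotein Fn1 (-0.28 ± 0.04 log2, edgeR adjusted p = 7.44e-05) and the receptor Pdgfrb (-0.22 log2, edgeR adjusted p = 1.07e-04). Among 29 genes of TGF-beta, BMP and activin signalling 5 were higher and 6 lower (37.9%), and 3 and 4 with the GC correction. The receptors Bmpr2 (0.42 ± 0.05 log2) and Bmpr1a (0.27 ± 0.04 log2) were higher, and Bmp1, the procollagen C-proteinase, was lower (-0.32 ± 0.04 log2, edgeR adjusted p = 2.01e-06). Corrected for GC these stood at 0.21, 0.14 and -0.20 log2. In the IGF system 3 of 9 genes were lower and 1 higher (44.4%), and 3 and 0 with the GC correction. The lower ones were the binding proteins Igfbp2 (-0.52 ± 0.08 log2) and Igfbp7 (-0.28 ± 0.04 log2) and the clearance receptor Igf2r (-0.23 ± 0.04 log2). The ligand Igf1 was the 1 higher gene (0.36 ± 0.11 log2, edgeR adjusted p = 0.0426), a call that 10 of 12 removals of a single library ended. Vegfa, the angiogenic factor, ran from 191 to 272 CPM against 149 to 216 CPM (-0.42 ± 0.04 log2, edgeR adjusted p = 4.83e-07; with the GC correction -0.33).

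Few genes of the fat cell itself were called. Adipoq, the adiponectin gene, stood at 91.3, 77.3 and 103 CPM in eWAT Cont and at 95, 76.2 and 103 CPM in iWAT Cont, and at 75.1, 133 and 133 CPM in eWAT aKO and 73.2, 139 and 135 CPM in iWAT aKO (0.02 ± 0.20 log2, edgeR adjusted p = 0.960). The libraries of the same genotype overlapped fully, and replicate 1 of aKO was the lowest aKO library under both labels. Pparg (0.15 ± 0.09 log2, edgeR adjusted p = 0.236), Cebpa (-0.35 ± 0.15 log2, edgeR adjusted p = 0.126), Fabp4 (0.10 ± 0.21 log2, edgeR adjusted p = 0.777) and Plin1 (-0.12 ± 0.24 log2, edgeR adjusted p = 0.749) were not called here, though Cebpa was called with limma voom and without eWAT aKO replicate 1. The SEs show how wide the spread of these genes was, so equal levels were not shown. A fit with a term for replicate number, described at the end, did call Cebpa, Pparg, Fabp4 and Plin1. Of 34 tested genes of adipocyte differentiation and lipid storage 2 were higher and 0 lower with the GC correction, Cav1 and Cavin1. Without it 2 were higher and 0 lower (5.88%, against 27.0% of all genes). One was Lpl, the lipase that releases fatty acids from lipoproteins, with 476, 372 and 519 CPM in eWAT Cont, 794, 660 and 850 CPM in iWAT Cont, 229, 445 and 403 CPM in eWAT aKO and 357, 625 and 593 CPM in iWAT aKO. Its iWAT-labelled libraries lay above the eWAT-labelled ones in Cont and overlapped them in aKO (0.65 ± 0.20 log2, edgeR adjusted p = 0.0367), and 8 of 12 removals of a single library ended the call, as did the GC correction (0.61 log2, edgeR adjusted p = 0.0798). The other was Cav1, the caveola scaffold (0.23 log2, edgeR adjusted p = 0.00108; with the GC correction 0.17 log2, edgeR adjusted p = 0.00666). In bulk RNA, fewer cells of a type and less RNA per cell cannot be told apart. Lep stayed at 0.135 to 1.20 CPM, and Ucp1 was not tested for lack of reads.

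Among 18 tested C/EBP and PPAR regulators 2 were higher and 5 lower (38.9%, against 27.0% of all genes), and 1 and 2 with the GC correction. Beside Cebpb, Cebpd, the other early factor of adipogenesis, was lower: it ran from 58.3 to 65.3 CPM against 46.9 to 57.4 CPM, without overlap (-0.22 ± 0.04 log2, edgeR adjusted p = 6.62e-04; with the GC correction -0.19). Cebpz, a nucleolar CCAAT-box protein, was higher (0.26 ± 0.04 log2, edgeR adjusted p = 1.37e-04; with the GC correction 0.16). The lipogenic regulator Srebf1 (-0.26 ± 0.06 log2, edgeR adjusted p = 0.00506) was not called with the correction (-0.11 log2, edgeR adjusted p = 0.148). Lists of brown and beige fat genes (0 higher and 1 lower of 18), lipogenesis (2 and 2 of 19), fatty acid oxidation (2 and 2 of 26) and cell division (5 and 1 of 36) were called at or below the 27.0% of all genes, at 5.56%, 21.1%, 15.4% and 16.7%. With the GC correction lipogenesis had 4 higher and 0 lower, fatty acid oxidation 2 and 1, cell division 3 and 1 and brown and beige fat genes 0 of either. Glycolysis genes had 3 higher and 2 lower of 20 (25%), and 11 and 1 with the correction. The fit over all 24 libraries called 1 of those 20, which was lower. SUMO pathway genes had 5 higher and 3 lower of 16 (50%), and 1 and 1 with the correction. In the list of cell division Mki67, a marker of dividing cells, was higher (0.28 ± 0.05 log2, edgeR adjusted p = 2.88e-04; with the GC correction 0.23).

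**Figure D5:**
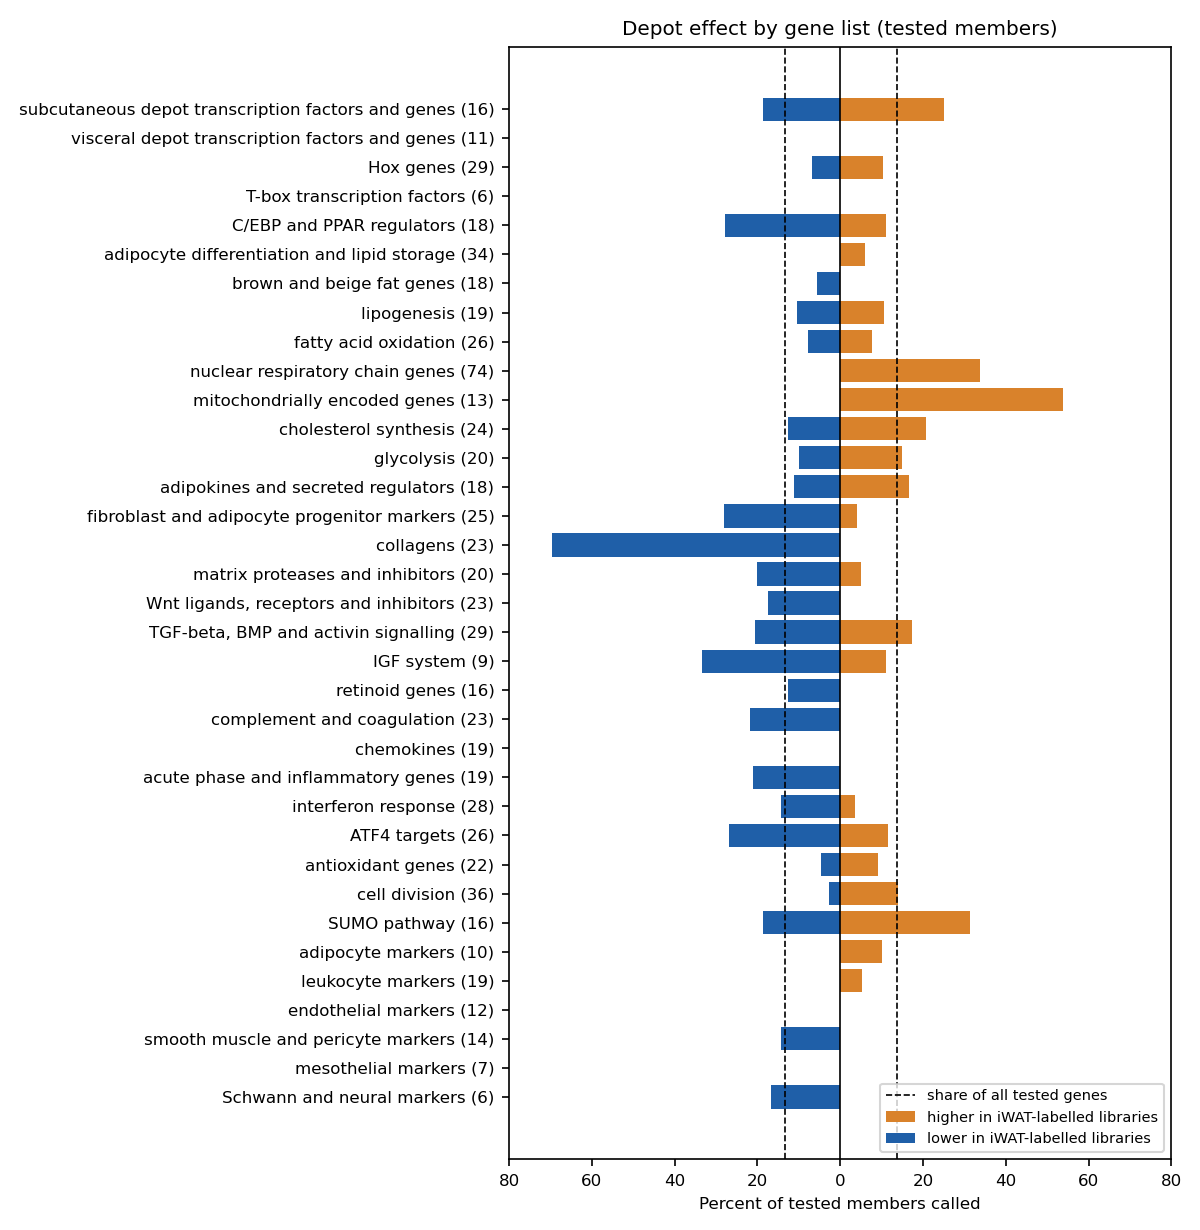
Percent of the tested members of each gene list shown (number in brackets) called higher (right) or lower (left) in the iWAT-labelled libraries. Dashed lines mark the share of all tested genes, 13.7% higher and 13.3% lower. Left out for few tested members are the lymphocyte, epithelial and mammary, skeletal muscle and sex-linked lists. Collagens reach 69.6% on the left, mitochondrially encoded genes 53.8% and nuclear respiratory genes 33.8% on the right, all without the GC correction.

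Few markers of other cell types were called between the depot labels. Leukocyte markers summed to 126 to 600 CPM in the eWAT-labelled and 111 to 542 CPM in the iWAT-labelled libraries. Of 19 tested members 1 was called (Clec7a, higher by 0.78 log2 and not called with the GC correction). These ranges span a genotype difference, with 17 of the 19 lower in aKO, against 14.0% of all genes. Within Cont the sums ran from 515 to 600 CPM in eWAT and from 501 to 542 CPM in iWAT. Within aKO they ran from 126 to 260 CPM in eWAT and from 111 to 234 CPM in iWAT. Summed mesothelial markers ran from 7.03 to 33.1 CPM against 7.52 to 36.1 CPM, with 0 of 7 called. Summed adipocyte markers ran from 663 to 1309 CPM against 786 to 1615 CPM, the one called member being Lpl. Endothelial markers had 0 of 12 called, smooth muscle and pericyte markers 2 lower of 14 (14.3%) and Schwann and neural markers 1 lower of 6 (16.7%). With the GC correction these lists had 0 called, apart from 1 Schwann or neural marker that was higher. Lymphocyte markers had 1 tested member of 13, 4 members had no read in the 12 libraries, and the defining genes Cd3d and Cd3e were at 0 in all of them. Epithelial and mammary markers had 0 tested of 14. Skeletal muscle markers had 0 of 3 called. Of 4 tested sex-linked genes 3 were higher in the iWAT-labelled libraries and 0 lower (75%, against 27.0% of all genes), and 0 were called with the GC correction.

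The depot difference was of like sign in both genotypes. It was called for 1525 genes in Cont (10.8%) and 1222 in aKO (8.65%), of which 832 were called in both, or 54.6% of the Cont calls and 68.1% of the aKO calls. None of the 832 had opposite signs, and 99.1% of the Cont calls had the same sign in aKO; these contrasts share no library, but both sides carried the GC tilt. In a direct test of the difference between genotypes edgeR called 0 of 14130 genes, the smallest p being that of the predicted gene Gm6900 (edgeR adjusted p = 0.224). An unadjusted p under 0.05 was found for 186, fewer than evenly spread p-values would give. The test was thus cautious, and 0 calls do not show equal depot differences in Cont and aKO. Without a filter on low counts 2 genes were called.

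The difference was not shown to be particular to the knockdown. Under siNS the same depot contrast called 851 genes (5.76%), or 2703 (18.1%) without iWAT aKO siNS replicate 2, which held only 603585 gene counts. Of the 3821 genes called under siC/EBPb 97.4% had the same sign under siNS, and 98.6% without that library, with a median size of 0.181 log2 there against 0.224. The siNS difference ran along transcript GC as well (Spearman's rank correlation -0.397 over all 12 siNS libraries). The GC tilt was -0.22 to 0.00988 in the eWAT-labelled and 0.092 to 0.245 in the iWAT-labelled siNS libraries, apart from the shallow one at -0.867. The part of the tilt in this likeness was not tested. All 30 genes named for size had the same sign under siNS and 18 were called. Nfkbia differed by -1.05 log2 under siNS (edgeR adjusted p = 0.00226), Samd8 by 0.45 and Hoxc9 by 0.37. In a direct test of the depot difference between siRNAs edgeR called 0 of 14785 genes, and 11 genes without a filter on low counts. An unadjusted p under 0.05 was found for 301, or 418 without the shallow library. Both are fewer than evenly spread p-values would give, so 0 calls do not show equal depot differences under both siRNAs.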

How the data were processed

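Poly(A) RNA libraries were made with a directional kit, per the labels' protocols. The tools used on the reads were CASAVA, cutadapt 2.7, TopHat2 2.1.1, HTSeq and edgeR, with build GRCm38, per the submitters' processing notes. Whether counting used the strand was not found in those notes or the labels, which leaves overlapping genes on opposite strands uncertain. The deposited table held the authors' raw counts for 53465 genes. Its 5 counter lines (reads with no feature and the like) stayed out of library sizes and tests, and so did the deposited per-sample signal files. Symbols, types and positions came from GENCODE M21 (GRCm38), which named 53360 identifiers and left 105 unnamed.

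The 12 libraries were fitted in edgeR 4.0.16 under R 4.3.3 (filterByExpr with a minimum count of 10, TMM, robust quasi-likelihood F test, genotype plus depot). A gene is called at an adjusted p of Benjamini and Hochberg under 0.05 over the 14130 tested genes. CPM values are scaled by TMM (factors 0.982 to 1.02). Contrasts within a genotype came from a fit with 1 mean per group, and contrasts between siRNAs from all 24 libraries. The fits were checked on simulated counts. The GC offset (loess, span 0.3) was added after seeing the data, as was the fit without replicate 1 of aKO. Other alternatives were DESeq2 1.42.0, limma 3.58.1 voom, other filters, a replicate block and each library left out. Depth, at 10333597 to 15213555 gene counts, limits genes of low count most.

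Genes named were drawn from 27 fixed genes, the 15 largest rises and falls as described and the smallest p of each interaction. Up to 6 called members of each list by smallest p (or 4 most expressed) were added. Not every gene these rules admit is described. The fixed genes Meox2, Hoxa5, Tbx5, Ppargc1a, Xist and Ddx3y are among those left out. The members and lists were chosen with earlier results of these data known, and Cd3d, Cd3e, Tpt1-ps5, Mir7688, the 6 uncalled Hoxc genes, Tnfaip3, Icam1, Il6 and Tnf were named after their values were seen. Promoter windows came from RefSeq. A kB-type motif, chosen after the values were seen, was also searched in them, gave counts that depended on how it was spelled and is not reported.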

Additional observations from a re-analysis of the deposited data

How the results depend on the processing

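The count of depot differences (3821) lay between 3120 and 4020 when each library was left out in turn. It was 2473 in a fit of all 24 libraries, 2375 with the GC offset and 2 against a threshold of 1.5-fold, a test that asks for more than a difference from 0. The share of higher calls stayed between 44.5% and 55.3% under every alternative other than that threshold. In Cont (1525) the count was 3665 with limma voom, 754 with the GC offset and 503 to 2261 with single libraries left out, the lowest without iWAT Cont siCEBPb replicate 1. It was 515 and 518 without eWAT Cont siCEBPb replicates 1 and 3, and 561 without iWAT Cont siCEBPb replicate 3. In aKO (1222) the count was 731 with limma voom, 594 with the GC offset and 499 to 1549 with single libraries left out. It was 499 and 643 without iWAT aKO siCEBPb replicates 2 and 3, and 568 without eWAT aKO siCEBPb replicate 2. Without replicate 1 of aKO in both depots the counts were 4068, 2123 in Cont and 968 in aKO. The difference between genotypes and the difference between siRNAs were called for 0 genes throughout, other than 2 and 11 genes with no filter on low counts. The cause of these changes was not tested, apart from the fewer libraries or the stricter threshold that an alternative brings. Vcam1, not called at 0.03 log2, turned to -0.12 log2 and was called with the GC offset, without and with the replicate block.

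Replicate numbers were not taken as pairs, since the labels do not say what they stand for and the correlation of same-numbered libraries' deviations across depots ran from 0.0688 to 0.707, over 8249 genes whose mean count was 200 or more. In 11 of 12 libraries the best correlation was with the library of the same number in the other depot. With the replicate block the counts were 5026 in both genotypes together, 2947 in Cont, 2793 in aKO and 0 for both interactions, and 3619 for the block with the GC offset. Under the block Cebpa, Pparg, Fabp4 and Plin1 were called, and mt-Nd1, mt-Nd2 and mt-Nd4 were not.

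Depth limits genes near the count minimum, such as Lep, and 3 libraries a group limit the contrasts within a genotype.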
